A study of Rattus norvegicus with 12 samples.

Results

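The comparison is between small mesenteric arteries of adult and of young Wistar-Kyoto (WKY) rats, the normotensive strain of the study, profiled on miRNA microarrays. The series holds 12 arrays, and the 6 of the normotensive strain were taken by their labels: 3 from rats of 5 months and 3 from rats of 6 weeks. Each age had 1 array from each of 3 WKY sublines, WKY/NHsd, WKY/NTac and WKY/NCrL, so that every subline gave a pair of ages. The other 6 arrays are the spontaneously hypertensive strain at the same ages (SHR/SP, which is stroke-prone, SHR/NCrL and SHR/NHsd), and they enter here in the shared estimate of the spread and in the test of whether the age change differed between strains.

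The groups differed by strain, subline and age, with no treatment between them, and rats of every group had isoflurane and heparin at the time of tissue collection. Each array held RNA pooled from the arteries of 5 male rats, so the values carry the mean of a pool and say nothing of the spread between single animals. What was profiled was the whole wall of small artery branches, endothelium and adventitia included, after surrounding fat had been taken off. WKY/NHsd and SHR/NHsd rats were bred in Madrid, and the other sublines came from 2 commercial breeders. Among the WKY arrays, subline and place of breeding therefore cannot be told apart. In such a mixed tissue, fewer cells of a type and less RNA per cell cannot be told apart either.

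A miRNA is a short RNA that guides the silencing complex to messenger RNAs, lowering their stability and translation. Bases 2 to 8 from its 5′ end, the seed, pair with the target, so that miRNAs with the same seed share many targets. Mature miRNAs are cut from hairpins, often several of them on 1 primary transcript, and both arms of a hairpin can be kept. In the artery wall, miR-143 and miR-145 are the classical miRNAs of contractile smooth muscle, miR-126 is that of endothelium, and the miR-29 family is known for repressing messenger RNAs of collagens, elastin and other matrix proteins.

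Values are the deposited log2 expression values after robust multi-array averaging (RMA), 1 value per miRNA and array. Of 719 rat miRNAs on the array, 301 were detected on at least 1 of the 6 WKY arrays and were tested, and 418 were not. Between 5 months and 6 weeks, 56 of the 301 (18.6%) passed an adjusted p of 0.05 (limma, Benjamini-Hochberg over the 301), 15 of them higher (4.98%) and 41 lower (13.6%) at 5 months. The split depended on the scaling of the arrays, being 2 higher and 25 lower with all arrays at 1 median, 26 and 24 at the 75th percentile of detected miRNAs, and 29 and 31 with the scanner's total gene signal. Of the 41 falls, 8 were detected at 6 weeks only and so entered the test through the age where they were high. Among the 196 miRNAs detected on all 6 WKY arrays 49 passed, 19 higher and 30 lower. At an unadjusted p under 0.05, 96 of the 301 passed. The median change over all tested miRNAs was 0.01 on the log2 scale, and the median standard error of a change was 0.16. Ages did not overlap in 89 miRNAs (29.6%), and in 146 (48.5%) all 3 sublines changed in the same direction. The 56 moved the same way in all 3 sublines, and in 55 the ages did not overlap, the exception being miR-222-3p.

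The arrays lay on 2 slides. Slide 1 held WKY/NHsd and WKY/NTac of 6 weeks and WKY/NHsd of 5 months, and slide 2 held the other 3. Of the SHR arrays, only SHR/NHsd of 6 weeks lay on slide 2. With slide as a block 61 miRNAs passed, 52 of them among the 56. Within slide 1 alone 2 young WKY arrays stood against 1 adult one, and within slide 2 alone 1 young array against 2 adult ones. Changes within a single slide therefore rest on 1 array at an age. The change of all 56 kept its sign on both slides. For the 55 whose ages did not overlap this was fixed in advance, because each slide held both ages.

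Most miRNAs past the threshold had a seed of their own. The 265 tested miRNAs with a RefSeq mature sequence (GRCr8) held 215 different seeds, and the 52 of the 56 among them held 44. At least 2 members past the threshold were found for 4 seeds, and in the fit without blocks no seed had members past it in both directions. They are shown here because the largest rises and several of the falling families belong to them. Capitals mark the seed.
miR-29a-3p: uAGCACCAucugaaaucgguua
miR-29b-3p: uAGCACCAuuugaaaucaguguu
miR-29c-3p: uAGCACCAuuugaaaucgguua
miR-322-5p: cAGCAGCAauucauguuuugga
miR-15b-5p: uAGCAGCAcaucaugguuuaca
miR-16-5p: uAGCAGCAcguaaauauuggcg
miR-497-5p: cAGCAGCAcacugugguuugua
miR-195-5p: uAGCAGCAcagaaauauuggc
miR-181a-5p: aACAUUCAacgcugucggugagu
miR-181b-5p: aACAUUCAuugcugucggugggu
miR-181c-5p: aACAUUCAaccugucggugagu
miR-181d-5p: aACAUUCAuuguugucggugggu
miR-34a-5p: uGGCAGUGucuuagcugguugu
miR-34b-5p: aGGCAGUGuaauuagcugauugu
miR-34c-5p: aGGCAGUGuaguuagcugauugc
miR-449a-5p: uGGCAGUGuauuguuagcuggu

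The miR-29 seed AGCACCA rose in 3 of 3 tested members, beside 4.98% of all tested, and the miR-15 seed AGCAGCA fell in 4 of 5, beside 13.6%. With subline as a block miR-16-5p and miR-497-5p did not pass (adjusted p = 0.101 and 0.0828), and miR-322-5p and miR-15b-5p did. These seeds differ by 1 base, C6G between miR-29b-3p and miR-322-5p, counted from 1 at the 5′ end. The miR-181 seed ACAUUCA fell in 3 of 4, and the miR-34 seed GGCAGUG fell in 2 of 4 while its member miR-34a-5p had a positive change that did not pass. With subline as a block the miR-34 seed had members in both directions, 1 higher (miR-34a-5p, adjusted p = 0.0166) and 3 lower. Of the first seed, miR-29a-3p and miR-29c-3p differ only by C10U along their whole length, and miR-34b-5p and miR-34c-5p only by A11G and U23C. Whether their probes also bound the near-identical partner was not tested.

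The largest rises were those of the miR-29 family. MiR-29b-3p read 10.88, 11.35 and 10.27 at 6 weeks in WKY/NHsd, WKY/NTac and WKY/NCrL, and 12.73, 12.91 and 12.98 at 5 months. The adult arrays lay close together, and the young ones spread over more than 1 log2 unit with WKY/NCrL lowest, well below every adult value. The rise was 2.04 ± 0.22 (SE, n = 3 arrays per age) on the log2 scale, 4.12-fold (adjusted p = 0.00029), and 1.85, 1.57 and 2.72 within WKY/NHsd, WKY/NTac and WKY/NCrL.

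MiR-29a-3p read 10.84, 10.82 and 10.36 at 6 weeks in the same order of sublines, and 11.97, 11.96 and 12.10 at 5 months. It rose by 1.33 ± 0.14, or 2.52-fold (adjusted p = 0.00029). Again WKY/NCrL was lowest when young and highest when adult. MiR-29c-3p went from 10.45, 10.71 and 9.93 to 11.46, 11.49 and 11.69, a rise of 1.18 ± 0.17 (adjusted p = 0.00103). In both miRNAs every adult array read above every young one.

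The opposite arms changed with the same sign. MiR-29c-5p rose from 5.68, 6.10 and 5.18 to 6.57, 6.65 and 6.78, by 1.01 ± 0.20 (adjusted p = 0.00562). MiR-29a-5p read 2.32, 2.50 and 2.46 and then 2.52, 3.02 and 3.17, a change of 0.48 ± 0.15 whose adjusted p was 0.051 and, with subline as a block, 0.0428. So 4 of the 5 tested members rose against 4.98% of all tested, with a median change of 1.18 beside 0.01 for all. Without both WKY/NHsd arrays 5 of 5 rose. Within slide 1 alone 3 rose and within slide 2 alone 4, with medians of 0.88 and 1.66.

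On the rn4 build, to which the array's probe positions refer, the family lies in 2 places. Probes of miR-29b-3p and both arms of miR-29c lie at chr13:110967572-110968122, and those of miR-29a and again miR-29b-3p at chr4:58107775-58108211. A mature miR-29b-3p is the same from both, so the array does not say which locus its rise came from.

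**Figure D1:**
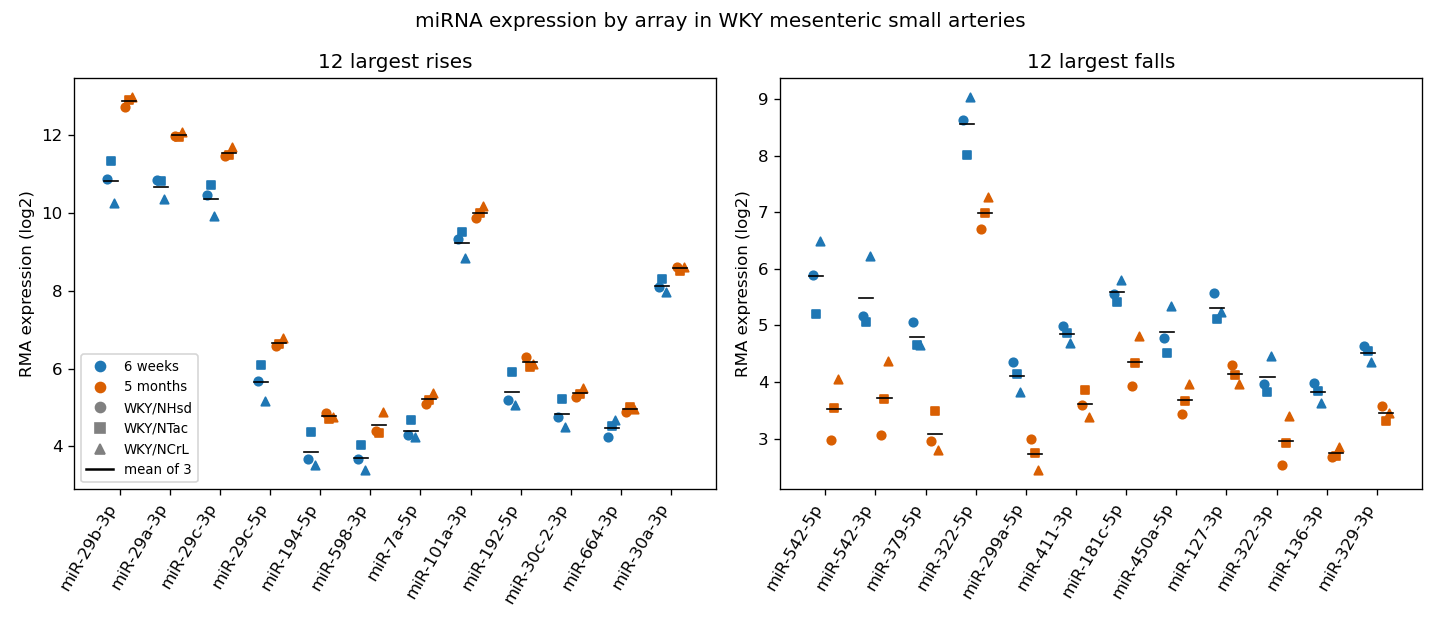
RMA expression (log2) on each of the 6 WKY arrays for the 12 largest rises (left) and 12 largest falls (right) whose ages did not overlap. Blue is 6 weeks and orange 5 months, marker shapes are sublines and bars are means of 3 arrays. MiR-29b-3p goes from 10.27 to 11.35 at 6 weeks to 12.73 to 12.98 at 5 months, and miR-542-5p from 5.21 to 6.49 down to 2.97 to 4.05.

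The remaining rises were smaller. MiR-194-5p read 3.68, 4.36 and 3.52 at 6 weeks and 4.87, 4.71 and 4.76 at 5 months, a rise of 0.93 ± 0.20 (adjusted p = 0.00848). Its cluster partner miR-192-5p read 5.19, 5.92 and 5.08 and then 6.31, 6.05 and 6.13, a rise of 0.76 ± 0.20 (adjusted p = 0.0192). In both, the young WKY/NTac array was the highest of its age and that subline moved least, by 0.35 and 0.12. MiR-192, miR-194 and miR-215 are known as miRNAs of intestinal and kidney epithelium, and their summed level was 5.64 to 6.42 at 6 weeks and 6.61 to 7.15 at 5 months. MiR-215 itself was at 2.15 to 2.23 in the young arrays and at 5.05, 2.42 and 2.21 in the adult ones, so that only adult WKY/NHsd was raised. Neither miR-192-5p nor miR-194-5p passed without the WKY/NHsd pair, nor without the WKY/NCrL pair. The part of other cells in these rises was not tested.

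MiR-7a-5p, known from neurons and endocrine cells, rose from 4.30, 4.67 and 4.24 to 5.10, 5.19 and 5.39, by 0.83 ± 0.13 (adjusted p = 0.00144). MiR-101a-3p, a known repressor of the histone methyltransferase gene Ezh2, rose from 9.33, 9.52 and 8.84 to 9.87, 10.00 and 10.18, by 0.78 ± 0.17 (adjusted p = 0.00735). Its opposite arm, near the floor of the array, had a change of 0.03. MiR-598-3p had a change of 0.83 ± 0.26 (adjusted p = 0.0447), from 3.38 to 4.05 at 6 weeks to 4.34 to 4.88 at 5 months. Its call was lost in 15 alternative settings, among them without the WKY/NHsd pair and without the WKY/NCrL pair.

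MiR-222-3p, known to repress the cell cycle inhibitor p27, read 3.81, 4.57 and 3.72 at 6 weeks and 4.53, 5.12 and 5.09 at 5 months. Here young WKY/NTac overlapped adult WKY/NHsd. The rise was 0.88 ± 0.27 (adjusted p = 0.0449), and the adjusted p was 0.0537 with subline as a block and 0.07 with slide as a block. MiR-221-3p, which has the same seed and lies beside it on the X chromosome, read 7.37, 7.76 and 7.44 and then 7.29, 7.73 and 7.49, a change of -0.02.

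In the miR-30 family 3 of 11 tested members rose and all 11 changes were positive, with a median of 0.27. Of all tested miRNAs 4.98% rose, and 154 of the 301 changes were positive. The 3 were miR-30c-2-3p with 0.54 ± 0.17, miR-30a-3p with 0.45 ± 0.10 and miR-30a-5p with 0.41 ± 0.12. MiR-30a-5p read 10.65, 10.88 and 10.46 at 6 weeks and 11.00, 11.09 and 11.11 at 5 months. With subline as a block miR-30a-3p alone kept its call, the adjusted p of miR-30c-2-3p being 0.0814 and that of miR-30a-5p 0.0828. The family count was 0 without both WKY/NHsd arrays and 0 without both WKY/NCrL arrays, and the median was 0.14 with all arrays scaled to 1 median. Outside these families, miR-664-3p rose by 0.47 ± 0.13 (adjusted p with slide as a block, 0.0518) and miR-361-5p, which no list or rule of choice held, by 0.45 ± 0.13 (adjusted p with subline as a block, 0.0783).

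The 2 largest falls, those of both arms of miR-542, belonged to a cluster on the X chromosome that also codes for miR-322, miR-503 and miR-450. The rat miR-322 corresponds to human miR-424, and miR-424 and miR-503 are known for repressing cell cycle genes. All 6 tested members were lower at 5 months, against 13.6% of all tested, with a median change of -1.38. MiR-503-5p among them was tested through its young arrays alone.

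MiR-542-5p read 5.90, 5.21 and 6.49 in young WKY/NHsd, WKY/NTac and WKY/NCrL, and 2.97, 3.54 and 4.05 in the adult arrays. It was detected on 2 of 3 adult arrays. The fall was the largest measured, -2.35 ± 0.33, leaving 0.197 of the young level (adjusted p = 0.00103). MiR-542-3p, its other arm, read 5.16, 5.07 and 6.23 and then 3.06, 3.70 and 4.36, a fall of -1.77 ± 0.36 (adjusted p = 0.00573). In both arms WKY/NCrL was the highest subline at both ages, and WKY/NHsd was the lowest when adult. Their sequences have no seed in common with other members of the cluster.
miR-542-5p: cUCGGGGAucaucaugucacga
miR-542-3p: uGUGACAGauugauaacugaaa
miR-450a-5p: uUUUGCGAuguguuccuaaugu
miR-503-5p: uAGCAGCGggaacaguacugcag

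MiR-322-5p shares its seed with the miR-15 family. It read 8.62, 8.01 and 9.03 at 6 weeks and 6.70, 6.98 and 7.26 at 5 months, a fall of -1.57 ± 0.27 to 0.336 of the young level (adjusted p = 0.00271). Every adult array was below every young one, and WKY/NTac, the lowest when young, had the smallest change, -1.03. MiR-322-3p went from 3.96, 3.82 and 4.46 to 2.53, 2.93 and 3.39, a fall of -1.13 ± 0.22 (adjusted p = 0.00562). MiR-450a-5p went from 4.78, 4.51 and 5.35 to 3.43, 3.67 and 3.97, a fall of -1.19 ± 0.23 (adjusted p = 0.00562).

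MiR-503-5p, whose seed differs from that of miR-322-5p by A8G, was detected on all 3 young arrays and on no adult one. Against the higher of its own adult values and the lowest level at which any miRNA was detected on the same array, it was at least 1.76-fold higher at 6 weeks (adjusted p = 0.00562). It read 3.16, 2.87 and 3.41 at 6 weeks and 2.12, 2.28 and 2.49 at 5 months. The cluster spans 5.27 kb at chrX:139994968-140000240 (rn4). All 6 passed with subline as a block, with slide as a block, and without the arrays of any 1 subline. Within slide 1 alone 5 passed and within slide 2 alone 2. The median fall was -0.47 without background correction, and -2.67 with the scanner's total gene signal, which also replaces the summary and the scaling.

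**Figure D2:**
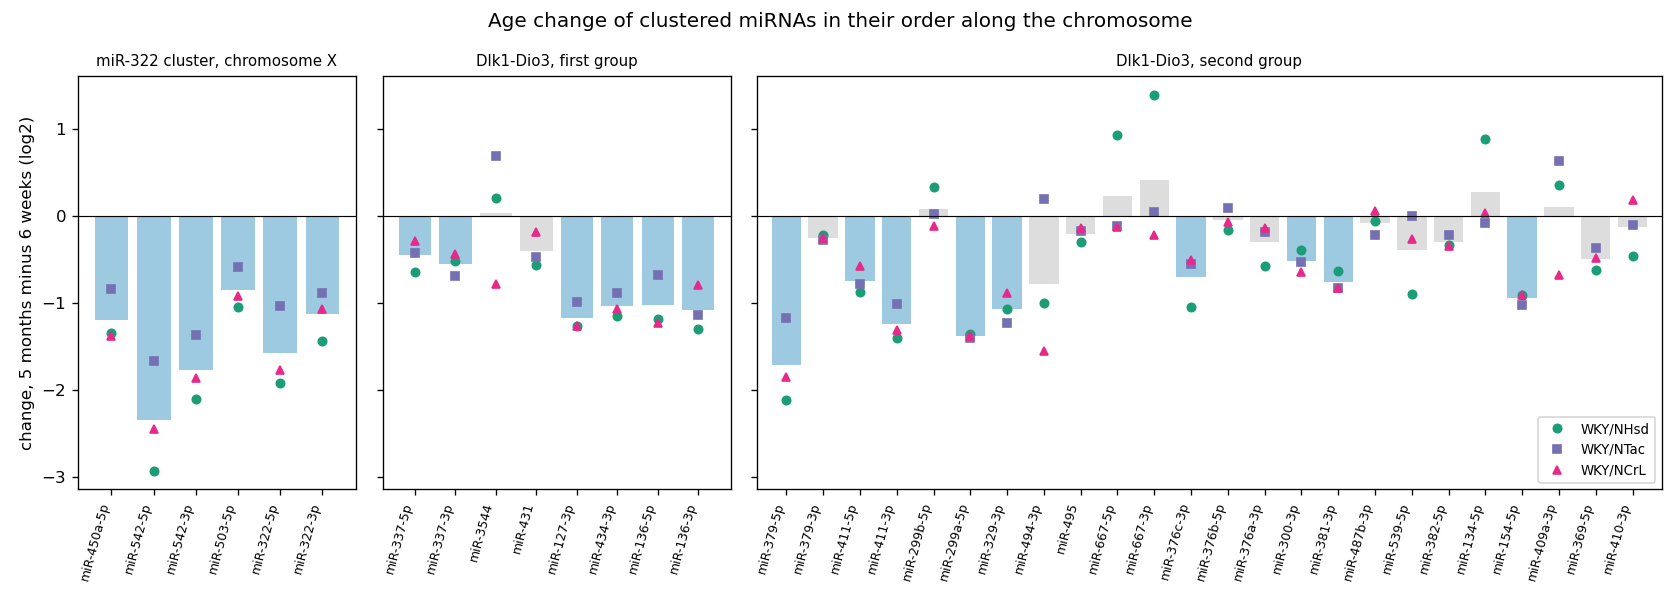
Change from 6 weeks to 5 months (log2) of the tested miRNAs of the X-chromosome cluster and of the Dlk1-Dio3 groups that held falls past the threshold, in their order along the chromosome. Bars are means over 3 sublines, blue where the adjusted p was under 0.05 and gray elsewhere, and points are the sublines. All 6 bars of the X cluster are blue, and in the second Dlk1-Dio3 group 9 of 24 are.

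The second large group of falls came from the imprinted Dlk1-Dio3 region, where a long series of miRNAs is read from the maternal chromosome only and is known from the mouse embryo and placenta. Of its members on the array 35 were tested, 15 were lower, against 13.6% of all tested, and none was higher, with a median change of -0.45. A further 54 were detected on no WKY array. Among the 15, miR-136-3p, miR-381-3p, miR-411-5p, miR-376c-3p, miR-337-3p and miR-337-5p were tested through their young arrays alone, where they read higher. Among the 35, 29 changes were negative, beside 147 of all 301 tested. The X cluster and this region together gave 21 of the 41 falls.

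MiR-379-5p, the first miRNA of the larger group, had the largest of these changes. It read 5.06, 4.66 and 4.65 at 6 weeks and 2.95, 3.49 and 2.81 at 5 months, where it was detected on 2 of 3 arrays. The fall was -1.71 ± 0.23 (adjusted p = 0.000747), with -2.11, -1.17 and -1.85 in WKY/NHsd, WKY/NTac and WKY/NCrL. MiR-299a-5p read 4.36, 4.15 and 3.82 and then 2.99, 2.74 and 2.44, being detected on 1 of 3 adult arrays. Its fall of -1.38 ± 0.18 (adjusted p = 0.000747) was measured as -1.36, -1.41 and -1.38 in the 3 sublines, with adult values mostly not above background. The probe of miR-299b-5p, which overlaps its position, had a change of 0.07.

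MiR-411-3p went from 5.00, 4.87 and 4.69 to 3.59, 3.86 and 3.38, a fall of -1.24 ± 0.17 (adjusted p = 0.000747). Its opposite arm miR-411-5p was detected on 2 of 3 young arrays and on none at 5 months, with a measured difference of 1.68-fold. MiR-329-3p went from 4.64, 4.55 and 4.35 to 3.57, 3.32 and 3.46, a fall of -1.06 ± 0.14 (adjusted p = 0.000747). In both miRNAs the arrays of an age lay close together beside the gap between the ages.

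In a smaller group, which lies before it on the chromosome, miR-127-3p and miR-136 led. MiR-127-3p, known in the mouse to repress the imprinted gene Rtl1, to which it is antisense, read 5.57, 5.12 and 5.23 at 6 weeks and 4.31, 4.13 and 3.97 at 5 months. It fell by 1.17 ± 0.17 on the log2 scale (adjusted p = 0.00103). MiR-136-3p read 3.98, 3.84 and 3.64 and was detected on no adult array, where it read 2.68, 2.70 and 2.85. The measured difference was 2.11-fold (adjusted p = 0.00029), against adult values not above background. MiR-136-5p, the opposite arm, went from 7.16, 6.69 and 6.79 to 5.98, 6.01 and 5.56, a fall of -1.03 ± 0.21 (adjusted p = 0.00573).

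MiR-434-3p fell by 1.04 ± 0.16 on the log2 scale and miR-154-5p by 0.95 ± 0.17, the latter being detected on 1 of 3 adult arrays. Of the rest, miR-381-3p, miR-376c-3p and miR-337-3p measured 1.70-fold, 1.63-fold and 1.46-fold higher at 6 weeks, and miR-337-5p was at least 1.36-fold higher. None of these 4 was detected on an adult array. MiR-300-3p fell by 0.52 ± 0.13. The calls of miR-300-3p and miR-337-5p were lost in 13 and 15 alternative settings, among them without the WKY/NTac pair. Within the region the falls were not evenly spread. In the group at chr6:134176783-134187046 (rn4) 6 of 8 tested were lower, with a median of -0.79, and in that at chr6:134388218-134425147 it was 9 of 24, with -0.34. Between them, at chr6:134203581-134210262, 0 of 3 were lower, with a median of -0.34. Of all tested 13.6% were lower. The 8 include miR-3544, which the list of the region does not hold.

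The members that did not pass included some with large but unequal values. MiR-494-3p read 8.07, 5.43 and 6.73 at 6 weeks and 7.07, 5.62 and 5.18 at 5 months, a change of -0.79 ± 0.65. MiR-667-3p was at 2.64 to 2.76 when young and at 4.13, 2.81 and 2.42 when adult, so that only WKY/NHsd was raised. The count of 15 was also 15 with subline as a block, and 13, 12 and 15 without the arrays of WKY/NHsd, of WKY/NTac and of WKY/NCrL. Within slide 1 alone it was 8 lower and 3 higher, and within slide 2 alone 0. The median was -0.06 without background correction, -1.24 with the scanner's total gene signal, and -0.25 when the 75th percentile of detected miRNAs set the scale.

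The other falls, 20 of the 41, lay outside these regions. In the miR-15 and miR-16 family, known to repress cyclins and Bcl2, 3 of 5 tested members were lower, beside 13.6% of all tested, with a median of -0.29. MiR-15b-5p read 9.89, 9.95 and 10.01 at 6 weeks and 9.30, 9.42 and 9.20 at 5 months, and fell by 0.64 ± 0.09 on the log2 scale (adjusted p = 0.000747). Its spread within an age was small against the gap between the ages. MiR-497-5p had a change of -0.37 ± 0.11 and miR-16-5p of -0.29 ± 0.08, and with subline as a block their adjusted p values were 0.0828 and 0.101. With slide as a block that of miR-497-5p was 0.0518. MiR-195-5p, from the same transcript as miR-497, had a change of -0.20 ± 0.10 (adjusted p = 0.191).

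In the miR-181 family, known from lymphocytes and from endothelial inflammation, 3 of 5 were lower, again beside 13.6%, with a median of -0.61. MiR-181c-5p went from 5.56, 5.41 and 5.80 to 3.92, 4.33 and 4.81, a fall of -1.24 ± 0.21 (adjusted p = 0.00251), and its neighbour miR-181d-5p from 4.00, 4.01 and 4.13 to 2.98, 3.29 and 3.45, a fall of -0.81 ± 0.14 (adjusted p = 0.00291). MiR-181a-5p, coded at other loci, went from 8.87, 8.79 and 8.93 to 8.13, 8.15 and 8.48, a fall of -0.61 ± 0.12 (adjusted p = 0.00562). In all 3 the fall was largest in WKY/NHsd. MiR-181b-5p had a change of -0.37 ± 0.12 with an adjusted p of 0.052. The family median was -0.15 without background correction.

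MiR-34b-5p and miR-34c-5p, members of a family known as targets of p53, come from 1 transcript. MiR-34c-5p read 4.00, 4.59 and 4.35 at 6 weeks and 3.18, 3.76 and 3.56 at 5 months, a fall of -0.81 ± 0.20 (adjusted p = 0.0148). The sublines kept their order at both ages and their changes were nearly equal, -0.82, -0.83 and -0.78. MiR-34b-5p fell by 0.78 ± 0.20 (adjusted p = 0.0186) with nearly the same values. MiR-34a-5p, coded elsewhere and with the same seed, went the other way, from 6.93, 7.32 and 6.62 to 7.99, 8.19 and 8.13. Its change of 1.15 ± 0.37 had an adjusted p of 0.0535, and of 0.0166 with subline as a block. MiR-449a-5p had a change of -0.50 ± 0.22, with an adjusted p of 0.146 and, with the block, of 0.0428. Neither miR-34b-5p nor miR-34c-5p passed without the arrays of WKY/NCrL.

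MiR-199a-3p is coded with miR-214 in an antisense transcript of Dnm3. It read 12.34, 12.04 and 12.14 at 6 weeks and 11.58, 11.52 and 11.45 at 5 months, a fall of -0.66 ± 0.11 (adjusted p = 0.00271). MiR-199a-5p fell by 0.46 ± 0.13, and miR-214-3p had a change of -0.33 ± 0.12 that did not pass (adjusted p = 0.0761). The call of miR-199a-5p was lost in 16 alternative settings, among them without the pair of any 1 subline. MiR-301a-3p read 9.63, 10.27 and 9.88 and then 8.73, 9.33 and 9.16, a fall of -0.85 ± 0.19 (adjusted p = 0.00821). MiR-130a-3p, of the same family, had -0.35 ± 0.11 (adjusted p = 0.0425, 0.0771 with subline as a block and 0.0548 with slide as a block).

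Both arms of miR-455 were lower. MiR-455-3p went from 5.49, 5.65 and 6.12 to 4.80, 4.99 and 5.01, a fall of -0.82 ± 0.20, and miR-455-5p was detected on 1 of 3 young arrays and on no adult one, and measured 1.51-fold higher when young. Other falls were miR-342-3p with -0.72 ± 0.15, miR-152-3p with -0.51 ± 0.12, miR-500-3p with -0.42 ± 0.09 and miR-484 with -0.42 ± 0.10. The members miR-455-3p, miR-342-3p, miR-152-3p, miR-500-3p and miR-484 were in no list and are named after their values were seen.

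**Figure D3:**
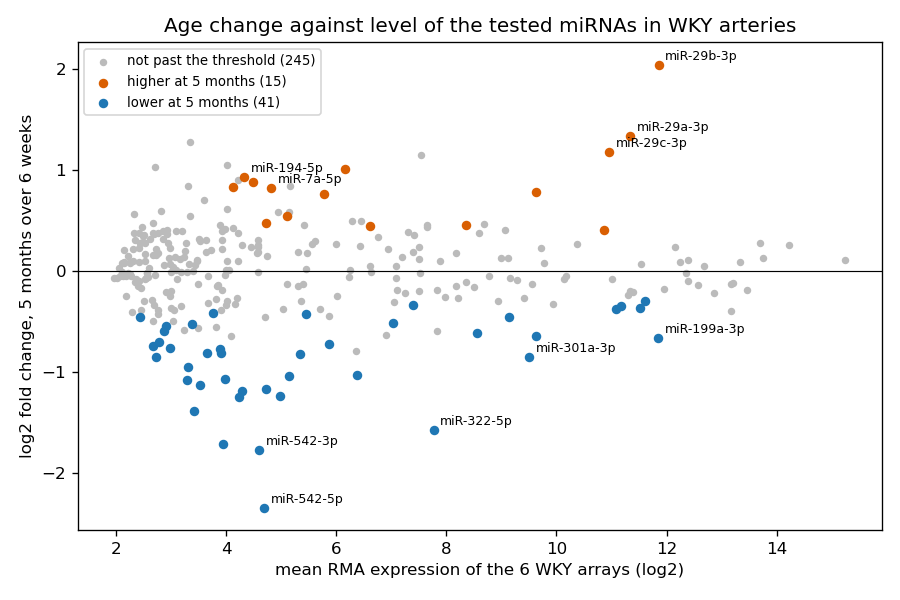
Change from 6 weeks to 5 months (log2) against the mean RMA expression of the 6 WKY arrays for the 301 tested miRNAs. Orange points were higher and blue points lower at an adjusted p under 0.05, and gray points did not pass. The 3 miR-29 members stand at the upper right with rises of 1.18 to 2.04, while most of the larger falls lie at levels under 6.

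Other families had few members past the threshold, beside 13.6% of all tested lower and 4.98% higher. Of the miR-17 to miR-92 clusters, 12 members were tested, and all had negative changes with a median of -0.34. Among all 301 tested, 147 changes were negative. The 1 that passed was miR-25-3p, with -0.34 ± 0.08 (adjusted p = 0.0175, and 0.0783 with subline as a block). With slide as a block 6 of the 12 passed, beside 46 falls among all 301 in that fit. In the let-7 family, known for its rise during differentiation, 1 of 12 passed, let-7e-5p with -0.37 ± 0.11 (adjusted p = 0.0354, and 0.0507 with the block), and the median was -0.11. None of 7 tested members of the miR-23, miR-27 and miR-24 clusters, of 9 of the miR-99, miR-100 and miR-125 clusters, of 6 miRNAs of the Hox clusters or of 4 from other imprinted loci passed, and their medians were 0.12, -0.05, -0.0017 and -0.13. With all arrays scaled to 1 median the first became -0.03, and the median of all tested miRNAs was -0.15. The miR-146, miR-132 and miR-26 families also had 0 past the threshold, with medians of 0.51, 0.41 and 0.11, though miR-146a-5p had an adjusted p of 0.0597 and, with the block, of 0.027.

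**Figure D4:**
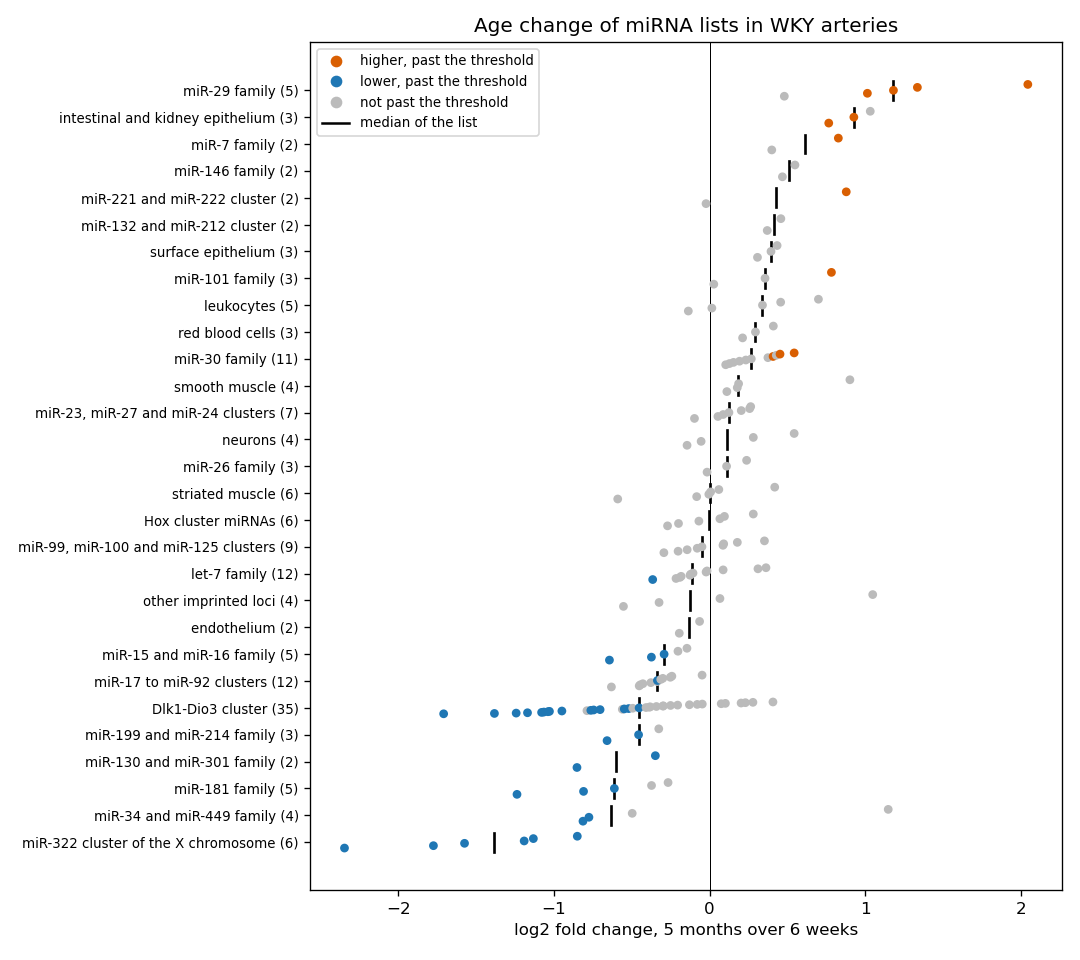
Change from 6 weeks to 5 months (log2) of the tested members of each family, cluster or marker list, with the number tested in brackets. Orange and blue points were higher and lower at an adjusted p under 0.05, gray points did not pass, and black bars are list medians. The miR-29 median is at 1.18 and that of the X-chromosome cluster at -1.38, and the median of all 301 tested miRNAs was 0.01.

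Markers of the vessel wall were checked against the label. MiR-143-3p was at 15.06 to 15.38 on all 6 arrays. The summed level of the smooth muscle list was 15.07 to 15.39 at 6 weeks and no lower than 15.17 at 5 months. That sum is nearly all miR-143-3p, whose mean of 15.25 stands beside 8.17 for miR-145-5p. Quantile normalization holds a very bright miRNA near 1 level on every array, so this steadiness is no test of smooth muscle content. None of the 4 members of the list passed, beside 18.6% of all tested. The largest change was that of miR-145-3p, 0.90 ± 0.30 (adjusted p = 0.0604), against 0.18 for miR-145-5p. The list median of 0.18 was -0.02 with all arrays scaled to 1 median. The endothelial miR-126a arms summed to 11.32 to 11.65 and then 11.20 to 11.40, with 0 of 2 past the threshold, again beside 18.6%.

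The lists of other cell types had their extremes on single arrays. The red cell list summed to 7.80 to 9.68 at 6 weeks and 8.95 to 9.80 at 5 months, the low value being young WKY/NHsd. The leukocyte list summed to 8.44 to 8.68 and 8.45 to 9.50, with adult WKY/NTac highest. No member of either list passed, nor any of the 6 striated muscle and 4 neuronal miRNAs tested, beside 18.6% of all tested. Lists this short can hold 0 at that share, so these counts say little of cell content. Of 17 surface epithelial miRNAs only miR-200a-3p, miR-200b-3p and miR-203a-3p were detected on any WKY array, and their sum was 3.98 to 4.28 at 6 weeks and 4.11 to 5.28 at 5 months, highest in adult WKY/NHsd. None of 8 pancreatic and 2 liver miRNAs was detected.

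Neighbouring miRNAs were compared by the position of their probes. On rn4, 76 groups of probes lying within 10000 bases of each other held at least 2 tested miRNAs, 12 held at least 2 past the threshold, and none held members past it in both directions. Members of such a group can share a transcript and are not independent. Of 60 hairpins with both arms tested, 9 had both arms past the threshold and in all 9 the arms moved the same way. In 5 only 1 arm passed. In 46 of the 60 both arms had the same sign. The arms that did not pass were those at or near the floor in miR-101a, miR-15b, miR-29a, miR-342 and miR-379, at mean levels of 2.05 to 2.66. Some arms at like levels did pass, among them miR-337-5p at 2.43, miR-411-5p at 2.67 and miR-455-5p at 2.86. The part of the level in these calls was not tested.

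The sublines shared directions but not sizes. Among the 15 rises WKY/NCrL had the largest within-subline change in 13 and WKY/NTac the smallest in 13, with medians of 1.23 in WKY/NCrL, 0.72 in WKY/NHsd and 0.48 in WKY/NTac. Among the 41 falls WKY/NHsd had the largest in 25 and WKY/NTac the smallest in 19, with medians of -0.88 in WKY/NHsd, -0.78 in WKY/NCrL and -0.69 in WKY/NTac. With 1 pool per subline and age, differences between sublines have no replicate and were not tested. Both WKY/NHsd arrays lay on slide 1 and both WKY/NCrL arrays on slide 2, while the WKY/NTac pair was split with the young array on slide 1, so subline and slide cannot be told apart in these sizes.

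**Figure D5:**
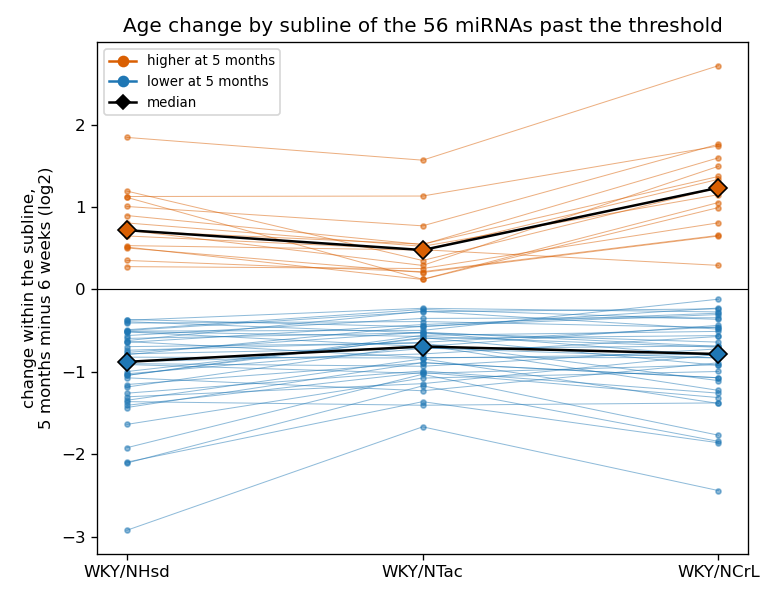
Change from 6 weeks to 5 months (log2) within each WKY subline for the 56 miRNAs past the threshold, each line joining 1 miRNA across sublines. Orange lines are the 15 rises, blue lines the 41 falls and diamonds the medians. The median rise is 1.23 in WKY/NCrL and 0.48 in WKY/NTac, and no line crosses 0.

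The adult WKY/NHsd array stood apart in its high values. In 27 miRNAs it was over 1 log2 unit above the mean of the other adult arrays and in 4 below it. For adult WKY/NCrL, whose comparison mean includes WKY/NHsd, it was 2 above and 16 below. The median absolute gap over all tested miRNAs was 0.251 for adult WKY/NHsd and 0.257 for adult WKY/NCrL. The largest gaps were those of miR-327, with 6.17 against 2.82 and 2.20, of miR-3584-5p, with 7.94 against 4.76 and 4.01, and of miR-3473, with 10.02 against 7.61 and 5.95. In these 3 the young WKY/NHsd array was also above the mean of the other young ones, by 1.70, 1.52 and 1.73. For miR-215 it was not, with a gap of 0.02. None of the 6 miRNAs with the largest gaps passed. They were chosen for a wide spread at 5 months, which the test divides by, so this was largely set by the choice. Without this array 53 miRNAs passed, 46 of them among the 56, and without both WKY/NHsd arrays 40 passed, 38 of them among the 56.

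The age change of WKY was set against that of SHR in the same fit. In SHR 90 of the 301 (29.9%) passed, and 46 of the 56 WKY miRNAs also passed there in the same direction. No miRNA passed in the difference between the strains' age changes (limma, smallest adjusted p = 0.519), and 25 had an unadjusted p under 0.05. The miR-29 rises were close in size, miR-29b-3p with 2.04 ± 0.22 in WKY and 2.09 ± 0.22 in SHR, miR-29a-3p with 1.33 and 1.36, and miR-29c-3p with 1.18 and 1.24.

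The X-chromosome falls were smaller in WKY than in SHR in value, miR-322-5p with -1.57 ± 0.27 and -2.47 ± 0.27 and the list median with -1.38 and -2.02, and the difference of 0.90 ± 0.38 in miR-322-5p did not pass (adjusted p = 0.555). The Dlk1-Dio3 median was -0.45 in WKY and -0.78 in SHR, where 22 of the 35 were lower. The opposite order was found in miR-34c-5p, with -0.81 in WKY and -0.06 in SHR, and in miR-34b-5p, with -0.78 and -0.03. Their differences of -0.75 ± 0.28 had unadjusted limma p values of 0.0217 and 0.0224 and adjusted p = 0.519.

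Within slide 1 alone 5 miRNAs passed in the strain difference, miR-200a-3p, miR-200b-3p, miR-204-5p, miR-215 and miR-338-3p, named after their values were seen. The only adult WKY array on that slide is WKY/NHsd, and in all 5 it was the highest adult WKY array, as in miR-338-3p with 10.73 against 9.84 and 9.86. Over all arrays the adjusted p of their differences was 0.544 to 0.753.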

How the data were processed

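The 12 arrays (Agilent rat miRNA arrays, 1-colour, Cy3) had been scanned and quantified by the authors with Feature Extraction, and the deposited spot intensity files hold signals, local backgrounds and detection flags. The authors normalized these by RMA (background correction, quantile normalization, summary per miRNA) and deposited the log2 values used here. A second deposited table of log2 values was identical. No column of samples was left unused (0). Quantile normalization forces the arrays to 1 distribution, so every change is relative to the other miRNAs. The number of arrays limits the precision.

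Detection flags of the scanner files chose the 301 tested miRNAs. Limma 3.58.1 in R 4.3.3 was fitted to all 12 arrays with a factor of 4 groups (strain by age), two-sided, with Benjamini-Hochberg adjustment over the 301 and a threshold of 0.05. The code was tested on simulated data. In WKY the replicate number of the labels is the subline. Deviations from the age means of arrays of the same subline correlated with r = 0.655, 0.242 and 0.288 over 301 miRNAs in WKY/NHsd, WKY/NTac and WKY/NCrL. Pairing by subline was thus clear in WKY/NHsd only, and blocked values are given where they change a call. Young WKY/NTac and adult WKY/NCrL correlated more with each other (r = 0.337) than either with its own pair.

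Described in depth were the 12 largest rises and 12 largest falls whose ages did not overlap. Also named were members of the lists, miRNAs detected at 1 age only, those the study names for WKY, up to 6 in which adult WKY/NHsd lay farthest off, and seed families with at least 2 members past the threshold. The comparison, the lists and the named miRNAs were chosen with earlier results of these data known. Lists were given as counts and medians with no test. Marker sums are log2 of the summed linear values. Alternatives changed the background, normalization, summary, detection filter, pairing, slide, model and arrays used.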

Additional observations from a re-analysis of the deposited data

How the results depend on the processing

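The 56 calls of the age change became 27 (2 higher, 25 lower) with arrays scaled to 1 median, 21 (5 and 16) scaled to the 75th percentile of all miRNAs, 27 on the 6 WKY arrays alone, 27 on those with subline as a replicate block, and 8 within slide 2. Scaling to detected miRNAs gave 50 calls with a split of 26 higher and 24 lower, and the scanner's total gene signal 60 with 29 and 31. These scalings moved the median of all miRNAs to between -0.15 and 0.22. Array weights, whose estimate did not reach its convergence tolerance, gave 69 (31 and 38). With each array left out in turn the calls numbered 43 to 72, the fewest without young WKY/NHsd and the most without young WKY/NTac. Over 12 arrays, subline as a replicate block gave 51, of which 47 were among the 56. No named call was reversed. Of the 50 named calls only 17 passed with every normalization and background, and 17 in every fit of over 8 arrays. In every alternative miR-29a-3p, miR-29b-3p, miR-322-5p and miR-542-5p passed, and of 50 named calls 35 passed with each single WKY array left out. The strain difference gave 0 calls in each alternative in which it was tested except slide 1 alone, with 5. It was not tested within slide 2, on the WKY arrays alone or with both blocks. Leaving out both arrays of WKY/NTac or of WKY/NCrL, the joint slide and subline blocks, and the strain difference within slide 1 were added after seeing the data. The causes were not tested. Signal over background limits the falls, 8 of which were detected at 6 weeks only.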
